A study of Saccharomyces cerevisiae with 8 samples.

Results

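Loss of SPT3 was examined inside budding yeast cells that already carried the not1-2 allele, by setting the not1-2 spt3 double mutant against the not1-2 single mutant over all non-control probe sets of the array. These strains gave 4 of the 8 arrays of the series, 2 each, and their arrays were paired by replicate number. The groups were not1-2 spt3 cells, which carry both mutations, and not1-2 cells, which carry the not1-2 allele with SPT3 intact. The 2 arrays of the spt3 single mutant entered the main model to estimate the spread only. The 2 arrays of the wild-type reference strain did not enter the main model. They were used where the effect of losing SPT3 was set against the same effect with NOT1 intact. They also helped to set the common scale, floor and filter, and entered the alternative fits over all 8 arrays. Per the labels, every culture spent 24 h at 30°C with glucose as carbon source, was shifted to the restrictive 37.5°C once diluted to an OD600 of 0.2, and was harvested at 0.8. Mating type, other markers and the way SPT3 was disrupted are not given in the sources used here.

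Spt3 is a subunit of SAGA, a coactivator complex that carries out histone acetylation and deubiquitination and, through Spt3, contacts the TATA-binding protein at promoters. CDC39 encodes Not1, the large subunit on which Ccr4-Not assembles, a complex that shortens the poly(A) tails of mRNAs and is also tied genetically to transcription by way of the TATA-binding protein. The comparison asks which transcripts of not1-2 cells have another level once Spt3 is missing too. The title of the study frames this as a role of SPT3 in the altered transcription of a Ccr4-Not mutant.

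A signal below is an array intensity in arbitrary units after each array was centred on its median, so that a difference is relative to the median probe set of the array. A floor of 1.72, the 10th percentile over all arrays, replaced any lower signal, and a difference with an array at the floor is a bound. A probe set was tested if the higher of the not1-2 spt3 and not1-2 mean signals was above 6.99, which left 6819 of 9275, of which 5288 named 1 gene. The test was limma's moderated test with the replicate number as a block, adjusted by Benjamini-Hochberg over all 6819, and each adjusted p below comes from it unless stated otherwise. The median standard error (SE) of a difference was 0.320 on the log2 scale. The RNA came from whole cultures, where fewer cells with a transcript and less of it per cell cannot be told apart.

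Replicate 1 arrays stood apart from replicate 2 arrays in a measure of RNA quality. The ACT1 controls gave a ratio of 3' over 5' signal of 12.2 and 1.84 on the not1-2 spt3 arrays and 36.8 and 2.10 on the not1-2 arrays, replicate 1 first. That of SPT15 was 19.3 and 3.51 on the not1-2 spt3 arrays and 25.1 and 3.44 on the not1-2 arrays. On replicate 1 the ratio was thus lower in not1-2 spt3 than in not1-2 for both controls, while the replicate 2 arrays of the strains were close to each other. Results that differ in size between the replicate pairs are given below for each pair.

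SPT3 itself was at the floor on both not1-2 spt3 arrays, against signals of 29.9 and 22.8 on the not1-2 arrays. It was at least 15.2-fold lower in not1-2 spt3 (log2 difference -3.93 ± 0.53 SE, limma adjusted p = 0.0301), as the strain label says. TRP1, a tryptophan synthesis gene widely used as a selectable marker in yeast, was the mirror image, with 51.8 and 36.0 on the not1-2 spt3 arrays and the floor on both not1-2 arrays. Its signal was at least 25.2-fold higher in not1-2 spt3 (4.65 ± 0.34, adjusted p = 0.0124), so the strains differed in TRP1 expression as well as in SPT3. In every difference between these strains given here, loss of SPT3 and the difference in TRP1 expression cannot be told apart. CDC39 had 25.8 and 58.2 on the not1-2 spt3 arrays, against 14.2 and 27.3 on the not1-2 arrays. Its values overlapped between the strains and the difference did not pass (0.98 ± 0.46, adjusted p = 0.292).

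The 4 genes that flank SPT3, 2 on each side in the reference annotation, all had a negative difference and none passed. IAT4 came nearest, with 60.6 and 62.0 on the not1-2 spt3 arrays and 128 and 155 on the not1-2 arrays, values that did not overlap (-1.20 ± 0.37, adjusted p = 0.132). The tRNA gene SUF3 differed by -1.10, SHE9 by -0.41 and RPT3, a proteasome ATPase, by -0.06, with adjusted p from 0.354 to 0.940. The median of the 4 was -0.76, against 0.07 over all probe sets tested.

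The mating factors were checked to see which mating type each strain showed. The alpha-factor gene MF(ALPHA)1 had 706 and 1160.5 on the not1-2 spt3 arrays and 534 and 1617 on the not1-2 arrays. The a-factor gene MFA2 had 15 and 17.5 on the not1-2 spt3 arrays and 18.0 and 11.5 on the not1-2 arrays. Both strains thus showed the alpha-factor transcript and little a-factor transcript. The other a-specific and alpha-specific genes are given with the gene lists.

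Among the probe sets that passed, more fell than rose when SPT3 was lost in not1-2 cells, although over all probe sets tested 44.8% were below not1-2 and 55.2% above. Of 6819 probe sets, 121 (1.77%) fell and 20 (0.293%) rose in not1-2 spt3, 141 (2.07%) in all, while 1415 had an unadjusted p under 0.05. Among the 121 that fell, 61 named 1 gene, 6 named several and 54 named none, and among the 20 that rose the numbers were 16, 1 and 3. The drops were also the larger changes: their median log2 difference was -1.96, all 121 were past 2-fold and 60 past 4-fold. The gains had a median of 1.36, with 16 of 20 past 2-fold and 8 past 4-fold. The median signal of the 121 probe sets was 51.8 in not1-2 spt3 and 277 in not1-2, against a median of 47.1 in not1-2 over all probe sets tested. The share of drops among the calls was 85.8%, 86.7% on the deposited scale and 86.4% after quantile normalization, but 76.5% at a threshold of 0.10, 72.4% with only the 4 compared arrays and 68.7% without not1-2 spt3 replicate 2.

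The replicate pairs gave the same direction for all 141 calls, which the test itself favours, against 71.6% of all probe sets tested. The median of the 121 drops was -2.01 in the replicate 1 pair and -2.02 in the replicate 2 pair, and that of the 20 gains was 1.61 and 1.22. The values did not overlap between the strains for 117 of the 121 drops, where 18.3% of all probe sets tested had both not1-2 spt3 values below both not1-2 values. They did not overlap for 16 of the 20 gains, where the background in that direction was 20.6%. The calls were made from these same values by a test that favours separation too. Neither the separation nor the likeness of the pair medians is thus separate support for them.

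**Figure D1:**
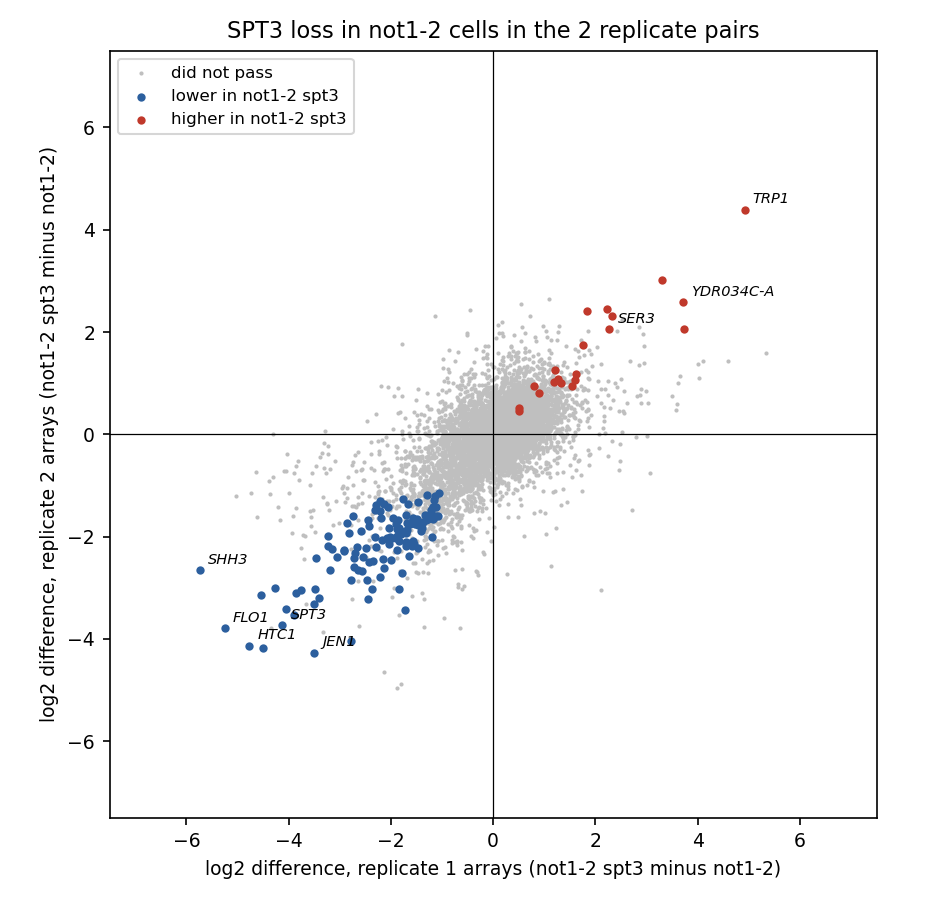
Log2 difference of not1-2 spt3 minus not1-2 in the replicate 1 arrays (horizontal axis) and the replicate 2 arrays (vertical axis) for each of 6819 probe sets, with the 121 that fell in blue, the 20 that rose in red and the rest in grey. All coloured points lie in the quadrants where both pairs have the same sign, with TRP1 at 4.92 and 4.39 and SHH3 at -5.73 and -2.66.

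How many probe sets passed depended on the arrays and the model. With no replicate block, 2 rose and 8 fell, and without either not1-2 array none rose or fell (618 probe sets with an unadjusted p under 0.05 without replicate 1, 811 without replicate 2). Without not1-2 spt3 replicate 1, 13 rose and 107 fell, and without its replicate 2, 78 rose and 171 fell. The spt3 arrays, which enter no difference, also moved the count: 184 rose and 461 fell without replicate 1, 196 rose and 479 fell without replicate 2. With the ACT1 3' to 5' ratio as a covariate, an alternative added after the data were seen, no probe set passed in limma and 993 had an unadjusted p under 0.05. All 141 differences kept their sign there.

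The 12 named genes with the lowest differences were chosen among those that passed without overlap, as were the 12 with the highest, so their separation follows from the choice. Among them HTC1 and CPP3 had signal well above the floor on all 4 arrays. HTC1 had 12.2 and 22.2 on the not1-2 spt3 arrays, against 333 and 389 on the not1-2 arrays, and so kept 4.58% of its not1-2 level (-4.45 ± 0.36, adjusted p = 0.0124). CPP3 was among the brighter transcripts of not1-2 cells and kept 4.93% of its signal, with 115 and 88.3 on the not1-2 spt3 arrays and 2616 and 1596 on the not1-2 arrays (-4.34 ± 0.34, adjusted p = 0.0124). The lowest not1-2 value of each gene was several times its highest not1-2 spt3 value.

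Genes of the cell surface and of transport were among the 12. FLO1, a flocculin that makes cells stick to each other, had the floor and 3.98 on the not1-2 spt3 arrays and 65.4 and 55.2 on the not1-2 arrays (-4.52 ± 0.51, adjusted p = 0.0258). HPF1, a mannoprotein of the cell wall, had 42.6 and 81.5 on the not1-2 spt3 arrays and 707 and 869.6 on the not1-2 arrays (-3.73 ± 0.44, adjusted p = 0.0258). The not1-2 spt3 level of FLO1 was at or near the floor, and that of HPF1 was not. JEN1, the permease for lactate and pyruvate, had 2.46 and the floor on the not1-2 spt3 arrays and 27.9 and 33.1 on the not1-2 arrays (-3.89 ± 0.52, adjusted p = 0.0301). QDR2, a multidrug transporter of the plasma membrane, had 4.17 and 5.33 on the not1-2 spt3 arrays and 28.6 and 88.2 on the not1-2 arrays (-3.41 ± 0.60, adjusted p = 0.0441). The not1-2 values of QDR2 differed by about 3-fold from each other and still lay far above both not1-2 spt3 values.

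The rest of the 12 are linked to mitochondria, oxidative stress, sulfur use or stationary phase. MPC3, part of the carrier that brings pyruvate into mitochondria, had the floor and 3.87 on the not1-2 spt3 arrays and 39.7 and 34.4 on the not1-2 arrays (-3.84 ± 0.48, adjusted p = 0.0274). SHH3, a homolog of the succinate dehydrogenase subunit Sdh3, had the floor and 6.60 on the not1-2 spt3 arrays and 91.4 and 41.6 on the not1-2 arrays (-4.20 ± 0.70, adjusted p = 0.0420). In SHH3 the drop was unequal between the pairs, -5.73 for replicate 1 and -2.66 for replicate 2. SRX1, the sulfiredoxin that repairs oxidised peroxiredoxins, had 57.8 and 74.9 on the not1-2 spt3 arrays and 858 and 863 on the not1-2 arrays, a 13.1-fold drop (-3.71 ± 0.38, adjusted p = 0.0228). JLP1, a dioxygenase that releases sulfite from sulfonates, had the floor and 4.91 on the not1-2 spt3 arrays and 33.0 and 39.6 on the not1-2 arrays (-3.64 ± 0.49, adjusted p = 0.0301). SPG4, a gene named for survival in stationary phase at high temperature, had 10.2 and 7.24 on the not1-2 spt3 arrays and 147 and 62.6 on the not1-2 arrays (-3.48 ± 0.31, adjusted p = 0.0163). With an array at the floor in SPT3, FLO1, SHH3, JEN1, MPC3 and JLP1, the 12 differences have no strict order.

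**Figure D2:**
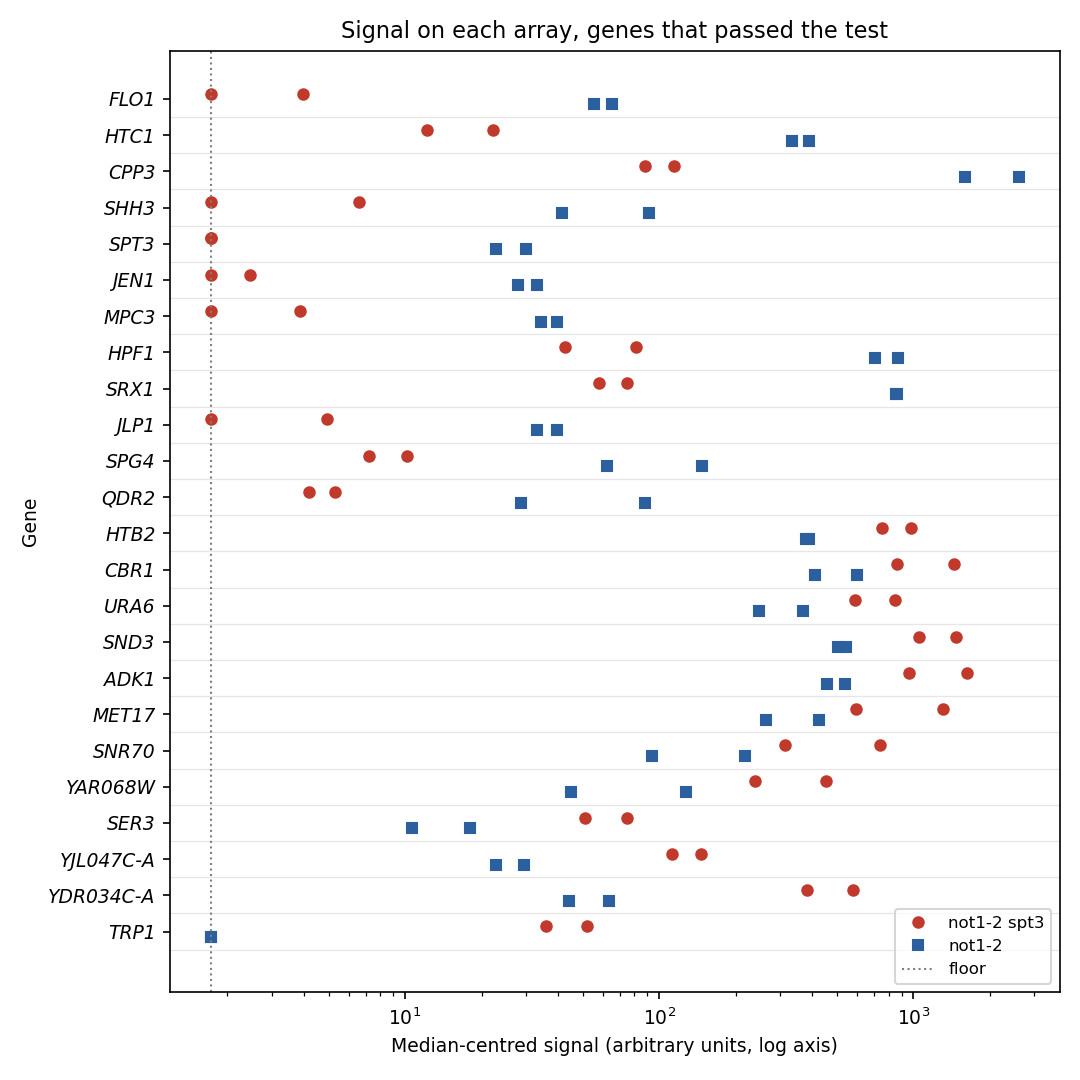
Median-centred signal (horizontal log axis) on each not1-2 spt3 array (red circles) and not1-2 array (blue squares) for the 12 lowest and 12 highest of the named genes that passed without overlap, with the floor of 1.72 as a dotted line. The strains do not overlap in these 24 genes, which were chosen for that. The drops include 21.8-fold in HTC1 and 10.7-fold in QDR2, and the gains include bright genes with changes near 2-fold, such as HTB2 at 2.24-fold.

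The genes that rose fell into a few with large changes and a larger number of bright ones with small changes. After TRP1, the uncharacterised reading frame YDR034C-A had the highest difference, with 581 and 381 on the not1-2 spt3 arrays and 44.3 and 63.3 on the not1-2 arrays (3.15 ± 0.35, adjusted p = 0.0258). YJL047C-A had 146 and 113 on the not1-2 spt3 arrays and 29.4 and 22.8 on the not1-2 arrays (2.31 ± 0.29, adjusted p = 0.0274). Both reading frames were above every not1-2 value on both not1-2 spt3 arrays, by 8.89-fold and 4.96-fold in the mean. SER3, a phosphoglycerate dehydrogenase that starts serine synthesis and is known for repression by transcription across its promoter, had 51.2 and 74.8 on the not1-2 spt3 arrays and 10.6 and 18.0 on the not1-2 arrays (2.16 ± 0.29, adjusted p = 0.0301). YAR068W had 455 and 238 on the not1-2 spt3 arrays and 128 and 45.0 on the not1-2 arrays (2.12 ± 0.35, adjusted p = 0.0420). The small nucleolar RNA SNR70 had 737 and 313 on the not1-2 spt3 arrays and 218 and 93.7 on the not1-2 arrays (1.75 ± 0.30, adjusted p = 0.0435). In YAR068W and SNR70 the replicate 1 array of each strain was brighter than its replicate 2 array, but both not1-2 spt3 values lay above both not1-2 values.

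The other 6 of the 12 rose by less. MET17, the sulfhydrylase that makes homocysteine and also a common marker, had 1306 and 596 on the not1-2 spt3 arrays and 425 and 263 on the not1-2 arrays (1.40 ± 0.24, adjusted p = 0.0441). The adenylate kinase ADK1 had 1632 and 959 on the not1-2 spt3 arrays and 539 and 459 on the not1-2 arrays (1.33 ± 0.21, adjusted p = 0.0399). The uridylate kinase URA6 had 845 and 589 on the not1-2 spt3 arrays and 367 and 246 on the not1-2 arrays (1.23 ± 0.21, adjusted p = 0.0435). These genes rose by 2.64-fold, 2.51-fold and 2.35-fold. SND3, which helps to target proteins to the endoplasmic reticulum, had 1478 and 1049.8 on the not1-2 spt3 arrays and 507 and 546 on the not1-2 arrays (1.24 ± 0.21, adjusted p = 0.0419). CBR1, a cytochrome b5 reductase, had 1443 and 866 on the not1-2 spt3 arrays and 599 and 412 on the not1-2 arrays (1.17 ± 0.18, adjusted p = 0.0353). The histone H2B gene HTB2 had 978 and 757 on the not1-2 spt3 arrays and 390.3 and 379 on the not1-2 arrays (1.16 ± 0.21, adjusted p = 0.0487). ADO1, the adenosine kinase, named here after its values were seen, rose by 0.87 ± 0.12 (adjusted p = 0.0301).

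Some genes rose within each pair although the values overlapped over all 4 arrays. SSA1, a cytosolic Hsp70 chaperone, had 10387 and 4268 on the not1-2 spt3 arrays and 7272 and 2971 on the not1-2 arrays. Its difference was small and nearly the same in both pairs, 0.51 and 0.52 (0.52 ± 0.07, adjusted p = 0.0305). RPL15B, a protein of the large ribosomal subunit, had 1181 and 463 on the not1-2 spt3 arrays and 518 and 227 on the not1-2 arrays (1.11 ± 0.20, adjusted p = 0.0481). IPP1, the inorganic pyrophosphatase, named after its values were seen, had 3407 and 1701 on the not1-2 spt3 arrays and 1838 and 973 on the not1-2 arrays (0.85 ± 0.14, adjusted p = 0.0405). In all 3 genes the replicate 1 arrays were the brighter ones in both strains.

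The gene lists that follow are described by how many of their tested members passed and by their median difference, to be read beside 1.77% called lower, 0.293% called higher, 44.8% below not1-2, 55.2% above and a median of 0.07 over all probe sets tested. A gene high in one strain only could enter through that strain, so members tested are not all members of a list. Lists share genes, and no test was made of a list.

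Among the machinery around Spt3, the transcripts of other subunits showed no call. Of 18 SAGA subunits tested, 1 fell, which was SPT3 itself, 0 rose, and the median was 0.28. Of 9 Ccr4-Not subunits 0 passed, with 8 above and 1 below not1-2 and a median of 0.17. CCR4, the main deadenylase, had 84.6 and 139.9 on the not1-2 spt3 arrays and 51.6 and 86.0 on the not1-2 arrays, which differ by 0.70 to 0.71 in each pair but overlap by a narrow margin (adjusted p = 0.215). Of 18 genes for the TATA-binding protein and its regulators 0 passed, with a median of 0.08. SPT15, the TATA-binding protein, had 239 and 226 on the not1-2 spt3 arrays and 126 and 167 on the not1-2 arrays (0.68 ± 0.30, adjusted p = 0.252). NCB2, a subunit of the repressor NC2, had 46.3 and 37.0 on the not1-2 spt3 arrays and 108 and 75.4 on the not1-2 arrays (-1.13 ± 0.32, adjusted p = 0.110). Neither gene overlapped between the strains, and neither passed.

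Genes for the use of carbon sources other than glucose were mostly lower. Of 19 genes of gluconeogenesis, the glyoxylate cycle and carboxylate uptake, 3 fell, 0 rose, 16 were below not1-2 and the median was -0.42, with -0.87 in the replicate 1 pair and -0.33 in the replicate 2 pair. Beside JEN1, PCK1, the phosphoenolpyruvate carboxykinase that commits carbon to gluconeogenesis, had 141 and 102 on the not1-2 spt3 arrays and 522 and 403 on the not1-2 arrays (-1.93 ± 0.27, adjusted p = 0.0305). PDH1, an enzyme of propionate use, had 6.93 and 9.59 on the not1-2 spt3 arrays and 25.6 and 34.8 on the not1-2 arrays (-1.87 ± 0.34, adjusted p = 0.0464). The signals of both genes separated the strains. Hexose transporters and glucose sensors had 0 calls among 13 tested, 10 below not1-2 and a median of -0.53. HXT3, a low-affinity glucose transporter, had 969 and 640.1 on the not1-2 spt3 arrays and 1216 and 1397 on the not1-2 arrays (adjusted p = 0.219), and HXT2 differed by -0.54 (adjusted p = 0.241).

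None of the 4 lists of mitochondrial and peroxisomal genes held a call, while MPC3 and SHH3, described above, stand in none of them. The tricarboxylic acid cycle (17 tested) had a median of 0.04, the nuclear-encoded respiratory chain and ATP synthase (43 tested) 0.13 and peroxisomal fatty acid oxidation (22 tested) -0.27. The members with the smallest p were LSC2 of succinyl-CoA ligase (-1.40, adjusted p = 0.0579), the aconitase ACO1 (-1.09, adjusted p = 0.0754), PEX21 (-1.68, adjusted p = 0.0708), ECI1 (-1.18, adjusted p = 0.0773), the cytochrome c isoform CYC7 (-1.22, adjusted p = 0.152) and the NADH dehydrogenase NDI1 (1.24, adjusted p = 0.162). Of 8 mitochondrially encoded proteins 4 were tested, and they did not move as one. COX1 had 75.8 and 191 on the not1-2 spt3 arrays and 358 and 493 on the not1-2 arrays (-1.80 ± 0.42, adjusted p = 0.0715). COB had 9.83 and 8.08 on the not1-2 spt3 arrays and the floor on both not1-2 arrays (2.38 ± 0.56, adjusted p = 0.0742).

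Stress genes were described in 2 lists, whose difference was not tested. Of 54 targets of Msn2 and Msn4, the general stress activators, 3 fell and 0 rose, with 37 below not1-2 and a median of -0.26. Beside SPG4, the stress-induced repressor XBP1 had 4.59 and 4.98 on the not1-2 spt3 arrays and 23.5 and 40.7 on the not1-2 arrays (-2.70 ± 0.42, adjusted p = 0.0359). The glycogen phosphorylase GPH1 had 25.8 and 33.2 on the not1-2 spt3 arrays and 82.2 and 85.6 on the not1-2 arrays (-1.52 ± 0.27, adjusted p = 0.0464). GPH1 was also the only call among 21 genes of trehalose and glycogen, whose median was -0.10, with 0.13 in the replicate 1 pair and -0.33 in the replicate 2 pair. Heat shock proteins and chaperones had 27 of 32 above not1-2 and a median of 0.43, and 1 rose (SSA1) and 1 fell. The gene that fell was BTN2, which collects misfolded proteins, with 48.6 and 57.6 on the not1-2 spt3 arrays and 212 and 148 on the not1-2 arrays (-1.74 ± 0.32, adjusted p = 0.0480).

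Among cell wall and surface genes the calls were drops. Of 27 cell wall integrity genes, 2 fell, 0 rose, 22 were below not1-2 and the median was -0.46. YPS3, an aspartic protease at the cell surface, had 131 and 92.9 on the not1-2 spt3 arrays and 715 and 863 on the not1-2 arrays (-2.83 ± 0.32, adjusted p = 0.0258). PST1, a wall protein induced by wall damage, had 281 and 265 on the not1-2 spt3 arrays and 1111 and 1082 on the not1-2 arrays (-2.01 ± 0.24, adjusted p = 0.0258). Replicates of PST1 were close in both strains, and its level was about 4-fold apart. Of 5 flocculin genes tested only FLO1 passed, and the median of the 5 was 0.00.

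**Figure D3:**
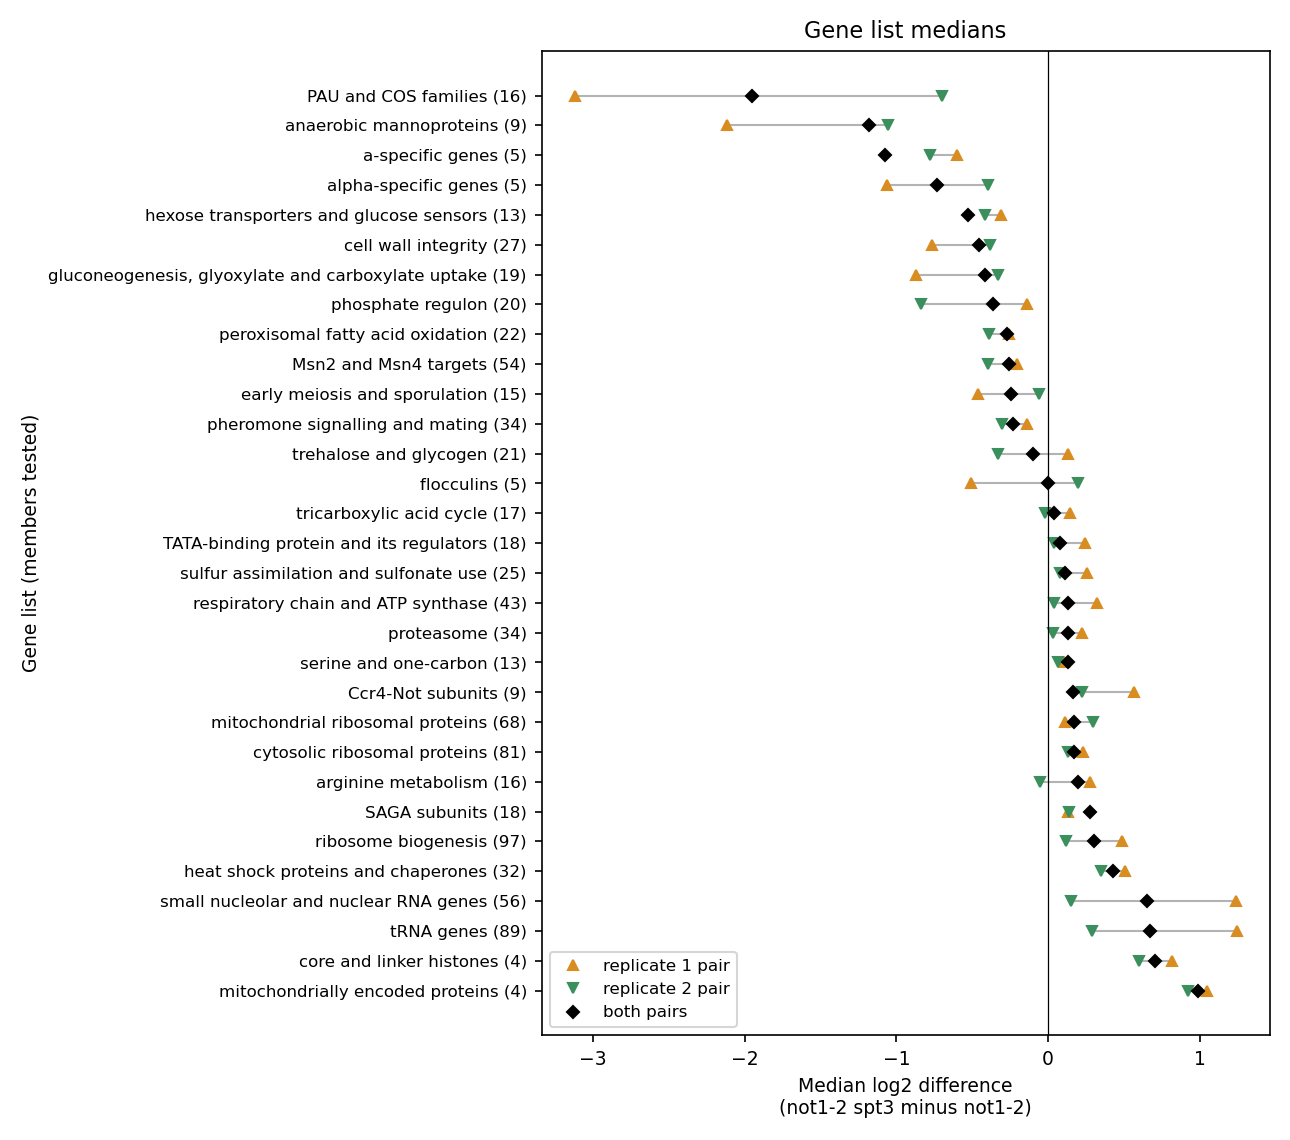
Median log2 difference of not1-2 spt3 minus not1-2 for each gene list in the replicate 1 pair (orange triangles), the replicate 2 pair (green triangles) and over both (black diamonds), with the number of members tested in brackets. PAU and COS genes, at -1.95, and anaerobic mannoproteins, at -1.18, lie lowest, and the lists with the widest gap between the pairs include PAU and COS, tRNA and small nucleolar RNA genes.

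The lowest list medians came from families with no call. The PAU and COS families, subtelomeric genes with many near-identical copies, had 15 of 16 tested members below not1-2 and a median of -1.95, which was -3.12 in the replicate 1 pair and -0.70 in the replicate 2 pair. Both not1-2 spt3 values lay below both not1-2 values for 12 of the 16, against 18.3% of all probe sets tested. PAU7 had 12.4 and 17.4 on the not1-2 spt3 arrays and 229 and 46.5 on the not1-2 arrays (-2.81 ± 0.63, adjusted p = 0.0656), and PAU17 differed by -2.37 (adjusted p = 0.0715). With the ACT1 ratio as a covariate PAU7 differed by -1.89, PAU17 by -1.44 and the list median was -1.28, and without not1-2 replicate 1 the median was -0.85. The anaerobic mannoproteins of the DAN and TIR group had 7 of 9 below not1-2 and a median of -1.18, with -2.12 and -1.05 in the pairs. Values did not overlap for 6 of the 9, all lower in not1-2 spt3, beside the same 18.3%. TIR3 had 143 and 131 on the not1-2 spt3 arrays and 1066 and 330.1 on the not1-2 arrays (-2.11 ± 0.43, adjusted p = 0.0575), and DAN4 differed by -1.62 (adjusted p = 0.0579). In PAU7 and TIR3 the high value was that of not1-2 replicate 1, the array with the highest ACT1 3' to 5' ratio of the 4. Copies of PAU and COS genes can share probes, so single members are uncertain.

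In nutrient pathways, single genes passed and lists did not move as one. Of 20 genes of the phosphate regulon, 2 fell and 0 rose (median -0.36, with -0.14 and -0.84 in the pairs). PHO89, a sodium and phosphate cotransporter, had 14.0 and 12.9 on the not1-2 spt3 arrays and 50 and 106 on the not1-2 arrays (-2.43 ± 0.38, adjusted p = 0.0362). PHO5, the secreted acid phosphatase, had 73.3 and 46.3 on the not1-2 spt3 arrays and 253 and 303 on the not1-2 arrays (-2.25 ± 0.39, adjusted p = 0.0435). Both fell by over 4-fold without overlap. Among 25 genes of sulfur assimilation and sulfonate use, JLP1 fell and MET17 rose (median 0.11), and among 13 of serine and one-carbon metabolism only SER3 passed (median 0.13). Of 16 genes of arginine metabolism 0 passed (median 0.20), and CAR1 differed by -0.74 and PUT1 by -1.03 (adjusted p = 0.156 and 0.136). Among 6 strain markers tested, TRP1 and MET17 rose and the median was 0.57.

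Mating and meiosis genes gave few calls. The 5 a-specific genes tested had a median of -1.07 and the 5 alpha-specific genes -0.73, with 0 calls in each. MFA1 had 9.32 and the floor on the not1-2 spt3 arrays and 34.5 and 9.23 on the not1-2 arrays (-2.16 ± 0.50, adjusted p = 0.0712), and BAR1, the protease that degrades alpha-factor, differed by -1.07 (adjusted p = 0.135). SAG1, the agglutinin of alpha cells, had 80.3 and 189 on the not1-2 spt3 arrays and 323 and 529.6 on the not1-2 arrays (-1.75 ± 0.39, adjusted p = 0.0656), and AFB1 differed by -0.73 (adjusted p = 0.346). Of 34 genes of pheromone signalling and mating 0 passed (median -0.23), with PRM3 at -1.71 and AGA1 at -1.35 (adjusted p = 0.0898 and 0.0743). Of 15 genes tested in the list of early meiosis and sporulation, SPG4 and SGA1 fell (median -0.24). SPG4 is the stationary-phase gene described above and also stands in the list of Msn2 and Msn4 targets. SGA1, the glucoamylase of sporulating cells, had 52.9 and 23.9 on the not1-2 spt3 arrays and 294 and 172 on the not1-2 arrays (-2.66 ± 0.34, adjusted p = 0.0278).

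Of the lists of ribosomes and growth, hardly any gene passed. Cytosolic ribosomal proteins had 68 of 81 above not1-2, 1 call (RPL15B) and a median of 0.17, which was 0.05 after quantile normalization, where the median of all probe sets was 0.08, and many of these genes have a near-identical copy. Ribosome biogenesis factors had 80 of 97 above not1-2, 0 calls and a median of 0.30, with 0.49 and 0.12 in the pairs. Values did not overlap for 33 that were higher in not1-2 spt3 and 4 that were lower. The helicase HAS1 had 61.8 and 83.0 on the not1-2 spt3 arrays and 24.0 and 32.6 on the not1-2 arrays (1.36 ± 0.27, adjusted p = 0.0560), and the helicase DBP2 differed by 1.34 (adjusted p = 0.0656). The 33 of 97 biogenesis factors that were higher without overlap stand beside a background of 20.6%, and the 4 that were lower beside 18.3%. Mitochondrial ribosomal proteins had 51 of 68 above not1-2, 0 calls and a median of 0.17, with MRPL31 at 1.02 and MRP8 at -0.79 (adjusted p = 0.105 and 0.15). The proteasome had 26 of 34 above, 0 calls and a median of 0.13. RPN1, a subunit of its base, had 146 and 146 on the not1-2 spt3 arrays and 65.2 and 74.9 on the not1-2 arrays (1.06 ± 0.28, adjusted p = 0.0971), and ECM29 differed by 1.12 (adjusted p = 0.159). Of 10 histone genes 4 were tested, all above not1-2 with a median of 0.71, and only HTB2 passed.

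Transcripts that carry no poly(A) tail in their mature form gave 1 call, and their list medians differed between the pairs. Of 89 tRNA genes tested 82 were above not1-2 and 0 passed, with a median of 0.67 that was 1.24 in the replicate 1 pair and 0.29 in the replicate 2 pair. Of 56 small nucleolar and nuclear RNA genes 42 were above and 1, SNR70, rose, with a median of 0.65, or 1.24 and 0.15 in the pairs. The tRNA genes with the smallest p were YNCC0001C, with 140.2 and 130.4 on the not1-2 spt3 arrays and 47.5 and 69.6 on the not1-2 arrays (adjusted p = 0.0969), and YNCP0004C (1.17, adjusted p = 0.0982). In the replicate 1 pair the ACT1 ratio was 12.2 in not1-2 spt3 and 36.8 in not1-2, and in the replicate 2 pair 1.84 and 2.10. Without not1-2 spt3 replicate 1 the medians were -0.21 for tRNA genes and -0.14 for small nucleolar and nuclear RNA genes. In that fit the replicate block came from the not1-2 and spt3 arrays, whereas the replicate 2 pair alone gave 0.29 and 0.15. The shift was larger in the pair with the larger gap in the ACT1 ratio, and the part of RNA quality in it was not tested. The labels name the material as polyA RNA.

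Many of the drops were in probe sets that stand for sequence families. Of the 121 probe sets that fell, 38 (31.4%) had the suffix that marks probes shared by a gene family, against 460 of 6819 tested (6.75%), and 35 of the 38 carried no gene name. Family probe sets share sequence, so they are not 38 separate transcripts. YHR214C-B, a reading frame of a Ty element and named after its values were seen, had 209 and 283 on the not1-2 spt3 arrays and 662 and 1249.6 on the not1-2 arrays (-1.90 ± 0.28, adjusted p = 0.0336). Its signal cannot be assigned to one Ty copy, since hybridisation does not separate near-identical sequences.

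Of the 61 named genes that fell, 15 stood in a list and 40 were past 4-fold. Some of the others are named here, chosen after their values were seen. SNZ1 and SNO1, neighbouring genes of vitamin B6 synthesis that share a promoter region, differed by -2.94 and -2.72 on the log2 scale (adjusted p = 0.0258 and 0.0305). SNZ1 had 27.2 and 24.1 on the not1-2 spt3 arrays and 298 and 129 on the not1-2 arrays. This was 1 of 2 pairs of adjacent genes among the named calls, the other being XBP1 and SGA1, and the members of each pair moved the same way. PUN1 and EXG1, the latter encoding an exo-glucanase, differed by -2.04 and -1.81 (adjusted p = 0.0274 and 0.0312), and the vacuolar protease PRB1 by -2.24 (adjusted p = 0.0301). ASH1, a repressor localised to daughter cells, differed by -2.09 (adjusted p = 0.0278), and TDH1, a glyceraldehyde-3-phosphate dehydrogenase, by -1.45 (adjusted p = 0.0494).

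The same loss was then set beside its effect with NOT1 intact, spt3 against wild type, which shares no array with not1-2 spt3 against not1-2. In spt3 against wild type 23 probe sets (0.337%) passed in limma's fit over all 8 arrays. Of the 121 probe sets that fell in not1-2 cells, 106 (87.6%) were also lower in spt3 than in wild type, where 50.3% of all probe sets tested were, and their median there was -0.92 against -0.00 over all. Only 5 of the 121 passed in both, which is 4.13% of the 121 and 29.4% of the 17 that fell with NOT1 intact. These included SPT3 and YJL218W, and the other 3 had no name. Of the 20 that rose, 11 (55.0%) were higher in spt3 as well, against 49.7% of all, with a median of 0.11, and SER3 and TRP1 passed in both. The ACT1 ratio was 5.83 and 1.79 on the spt3 arrays and 199.1 and 1.88 on the wild-type arrays, replicate 1 first. On replicate 1 it was thus lower without SPT3 in both backgrounds, and the part of RNA quality in the shared direction was not tested.

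The genes differed in how they behaved with NOT1 intact. SER3 had 59.6 and 64.9 on the spt3 arrays and 5.08 and 9.92 on the wild-type arrays (3.13 ± 0.31, adjusted p = 0.00348), so it was higher without SPT3 in both backgrounds. TRP1 was 4.87 ± 0.39 higher in spt3 than in wild type (adjusted p = 0.00100), with both wild-type arrays at the floor. CPP3 had 295 and 95.5 on the spt3 arrays and 404 and 121.8 on the wild-type arrays, a difference of -0.40 ± 0.38 (adjusted p = 0.593). SRX1 had 134 and 66.5 on the spt3 arrays and 105 and 48.6 on the wild-type arrays (0.40 ± 0.41, adjusted p = 0.634). In FLO1 both strains were near the floor, with 1.72 and 4.03 on the spt3 arrays and 1.72 and 5.35 on the wild-type arrays. In CPP3, SRX1 and FLO1 the spt3 and wild-type values overlapped. The test of the difference between the backgrounds passed in none of the 3.

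The difference between the backgrounds was tested itself, as the effect of losing SPT3 in not1-2 cells minus its effect with NOT1 intact. It passed for 4 of 6819 probe sets (0.0587%), while 676 had an unadjusted p under 0.05. SPG4 was the only one among the 141 calls, with 11.0 and 7.07 on the spt3 arrays and 10.6 and 4.30 on the wild-type arrays. Its effects were -3.48 in not1-2 cells and 0.38 with NOT1 intact, which differ by -3.86 ± 0.49 (adjusted p = 0.0447). CPP3 (-3.94, adjusted p = 0.0579), SRX1 (-4.11, adjusted p = 0.0643), URA6 (2.25, adjusted p = 0.0643) and FLO1 (-4.32, adjusted p = 0.111) did not pass, so for them a different effect in the backgrounds is not shown. The other 3 that passed were the mating-factor genes MFA1, MFA2 and MF(ALPHA)1. The wild-type arrays had 4972 and 1448 for MFA2 and 14.9 and 17.1 for MF(ALPHA)1, the reverse of both not1-2 strains, so the wild-type arrays showed the transcripts of the other mating type. Since spt3 and wild type differed in mating type and TRP1 expression as well as in SPT3, these cannot be told apart in spt3 against wild type, for SPG4 and the 106 of 121 as for any other gene. The labels do not say whether the strains are otherwise isogenic.

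**Figure D4:**
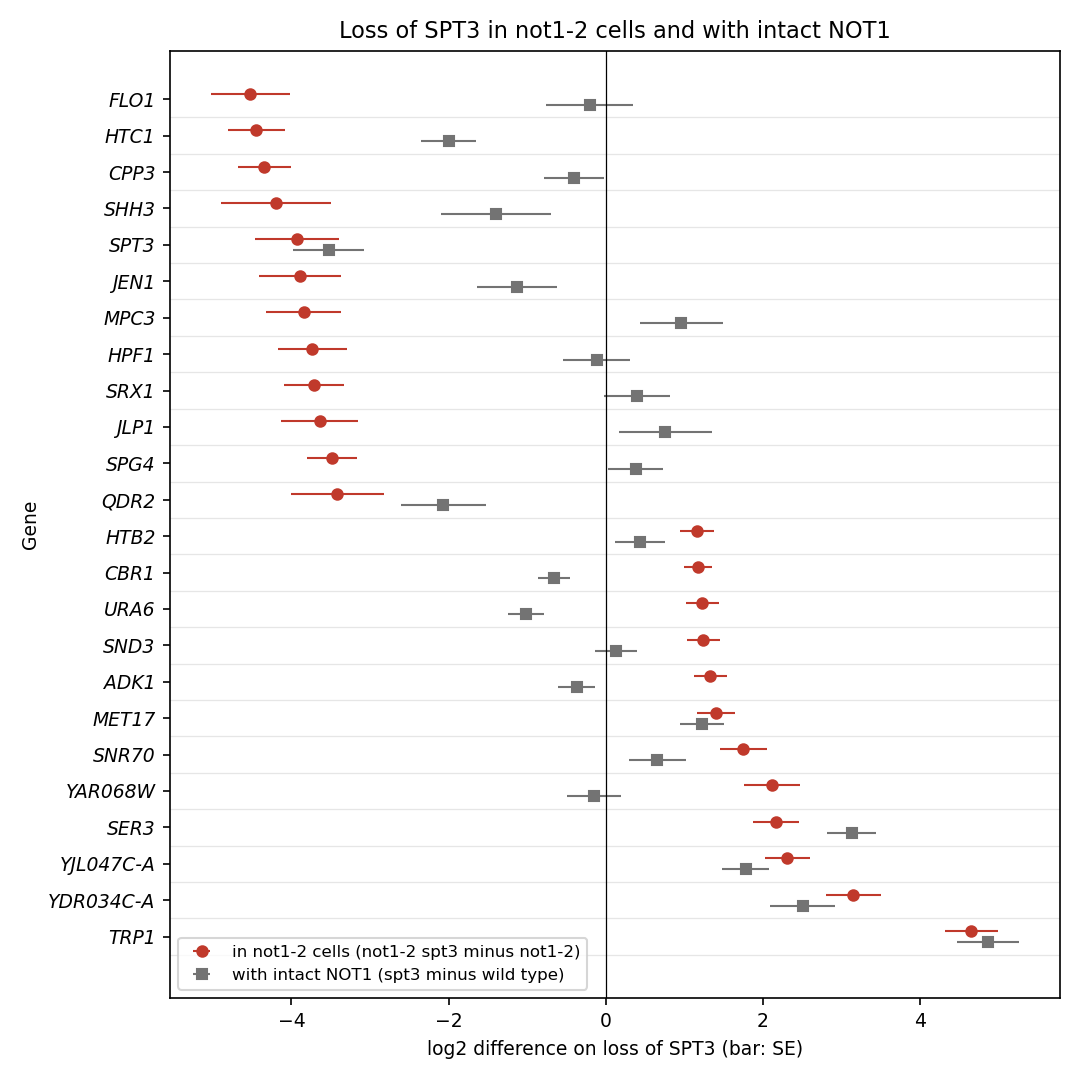
Log2 difference on loss of SPT3 (horizontal axis, bars are SE) in not1-2 cells, from the 6-array model (red circles), and with NOT1 intact, from the 8-array model (grey squares), for the 24 genes with the lowest and highest differences. SPT3, SER3, YDR034C-A and TRP1 are among the genes on the same side of 0 in both. CPP3 is too, at -4.34 and -0.40, whereas SRX1 is on opposite sides, at -3.71 and 0.40.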

How the data were processed

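Per the labels, polyA RNA was extracted with acid phenol, labelled with biotin and hybridised to Affymetrix arrays. The authors deposited a linear intensity for every probe set on every array, made with software not given in the sources used here. These intensities had been scaled alike, since their 2% trimmed mean was 100.1 on each array. The table had 9335 probe sets, 60 of them controls, which were dropped. The remaining 9275 comprised 6504 that named 1 gene (all found in R64), 328 that named several and 2443 that named none. Those of the last 2 kinds were tested but not named.

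The spread of array medians was 0.419 (log2), over a tolerance of 0.2, so arrays were centred on their medians, floored at the 10th percentile and log2-transformed. The filter was the 25th percentile, and a gene was represented by its brightest probe set. Strain means of 6 arrays and a replicate block, with 2 residual and 4.92 prior degrees of freedom, were fitted with limma 3.58.1 in R 4.3.3 (eBayes with trend, 2-sided, threshold 0.05). The difference between backgrounds used all 8 arrays. The functions were tested on simulated data. Figures and counts were made with Python 3.11.15.

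The numbers in the titles were taken to pair the arrays, because deviations from strain means correlated in all pairs of strains (r of 0.644 for not1-2 spt3 with not1-2, and from 0.172 to 0.755 over all pairs). The first principal component separated the numbers over 8 arrays (48.1% of the variance) but not over the 6 of the model (45.5%). The labels give no shared day or culture. Replicates may be technical, so p-values measure only the spread between these arrays, and 2 per strain limit the precision.

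The comparison and the 33 gene lists were chosen with earlier results of these data known. Named genes were SPT3, its neighbours, CDC39, TRP1, the 12 lowest and 12 highest passing genes without overlap, and from each list at most 4 that passed or, failing that, the 2 of smallest p. MFA2 and MF(ALPHA)1 were added as a check of the strains. Alternatives changed the scaling, floor, offset, filter, trend, block, arrays, threshold and probe set per gene. Promoter sequences were not used here.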

Additional observations from a re-analysis of the deposited data

Results flagged for a closer look

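The effect of losing SPT3 differed between not1-2 cells and cells with NOT1 intact for 4 genes in limma's test of the difference itself, over all 8 arrays with the replicate block. For SPG4 the effect in not1-2 cells minus that with NOT1 intact was -3.86 on the log2 scale (adjusted p = 0.0447). It kept its sign under each alternative and missed the threshold under some, with adjusted p from 0.0234 to 0.869. For the a-factor genes MFA1 and MFA2 the differences between the effects were 6.85 and 8.41 (adjusted p = 0.00164 for both), and for the alpha-factor gene MF(ALPHA)1 the difference was -6.25 (adjusted p = 0.0179). Their adjusted p ran over the alternatives up to 0.869 for MFA1, 0.279 for MFA2 and 0.367 for MF(ALPHA)1. The effects of losing SPT3 on these 3 genes were -2.16, 0.17 and -0.04 in not1-2 cells for MFA1, MFA2 and MF(ALPHA)1, and -9.01, -8.24 and 6.21 with NOT1 intact. The wild-type arrays showed transcripts of the other mating type, and in spt3 against wild type the spt3 mutation, mating type and TRP1 expression cannot be told apart for any of the 4 genes.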

How the results depend on the processing

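The counts of probe sets that passed moved widely, while all 141 differences kept their sign wherever they were tested, except 1 of them after quantile normalization. In limma 8 rose and 52 fell on the deposited scale without centring, 9 and 57 after quantile normalization, 5 and 29 with no intensity trend, 2 and 8 with no replicate block, and 184 and 483 with only the 4 compared arrays and the block. With all 8 arrays and no block 1 rose and 1 fell. With no filter 0 rose and 0 fell (1396 had an unadjusted p under 0.05). At a threshold of 0.01 the counts were 0 and 0, and at 0.10 they were 124 and 404. With the block and a covariate for the ACT1 ratio the counts were 0 and 0 on 6 arrays, and 17 rose and 69 fell on 8 arrays. Leaving out 1 array gave 0 to 196 that rose and 0 to 479 that fell, and the cause was not tested. The floor, the offset, a filter on the mean and the use of all probe sets left both counts within 1.5 times. Of 36 named genes that passed by rule, 7 still passed with no replicate block, 23 after quantile normalization and 34 with all 8 arrays and the block.

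The 4 differences between backgrounds were 0 with no filter (775 unadjusted), 0 with no replicate block (232 unadjusted), 2 after quantile normalization, and 0 to 150 when 1 array was left out, with 150 without spt3 replicate 2, 0 without not1-2 replicate 2 (319 unadjusted) and 1 without wild-type replicate 1. Among named genes, signs turned only in 4 that had not passed, when 1 array was left out. SHE9 ranged from -1.07 to 0.24, RPT3 from -0.34 to 0.21, MF(ALPHA)1 from -0.87 to 0.79 and MFA2 from -0.23 to 0.57. Of 33 list medians 12 changed sign when some array was left out, those of flocculins, serine, sulfur, arginine, alpha-specific, respiratory, tricarboxylic acid cycle, mitochondrial ribosomal, proteasome, meiosis, tRNA and small nucleolar genes, and 8 changed sign under another alternative. With the ACT1 covariate on 6 arrays 13 moved by more than the spread between replicates. A strain left with 1 array was assumed to vary like the others. With 2 arrays per strain, signals near the floor limit the size of a drop to a bound.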
